A study of Mus musculus with 12 samples.

Results

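Mitochondria translate the few messenger RNAs of their own genome on a ribosome of their own, and every protein of that ribosome is made from nuclear genes and imported. The large subunit joins amino acids and carries the tunnel through which the chain leaves, and the small subunit holds the messenger RNA and reads its codons. Many of the proteins have a counterpart in bacterial ribosomes, while others are found in mitochondria alone. The products of this ribosome are subunits of the respiratory chain complexes and of ATP synthase. The genes described here are all those in the deposited table whose Entrez ID belongs to a mouse gene named Mrpl or Mrps followed by a number, 77 of 9842 genes. The rule uses names only and no measured value. Of the 77, 48 are named Mrpl and 29 Mrps. By position in the structure 50 encode large subunit proteins and 26 small subunit proteins, because Mrps30 and Mrps18a lie in the large subunit in spite of their names. Mrps36 is today assigned to the alpha-ketoglutarate dehydrogenase complex and was counted apart. The reference gene table holds 84 genes that follow the rule, and those without a row in the deposited table are Mrpl53 and 6 pseudogenes, which were not analysed here. All 77 were above 0 in all 12 libraries, and 72 reached 1 FPKM (reads per kilobase of gene and per M reads of the library, M for mega) in all 12.

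The RNA came from B cells of female C57BL/6J mice that lack LSD1, a histone demethylase encoded by Kdm1a (KO), or that carry it (WT). The labels give neither the age of the mice nor the Cre line or promoter behind the loss. Cells without LSD1 were ex vivo-derived marginal zone B cells (eMZB_KO) or splenic transitional B cells (TrB_KO), and both types were also taken from wild type (eMZB_WT, TrB_WT), with 3 libraries of 2000 cells in each of the 4 groups. The eMZB cells had grown from transitional B cells in a culture of 3 days that held BAFF and DL1, a ligand of Notch, and the sort took B220+ CD21+ CD1d+. TrB cells were sorted as B220+ CD93+ straight from spleen, unstimulated, and both sorts left out cells with Thy1.1, F4/80 or CD11b. Cell type and culture therefore cannot be told apart. Nothing in the labels says that the 3 libraries of a group came from separate mice, so every p-value measures the spread between libraries, which may be technical. In bulk RNA, fewer cells of a type and less RNA per cell cannot be told apart. Values below are FPKM divided by a median-of-ratios factor per library (scaled FPKM), and log2 differences are on the log2(scaled FPKM + 1) scale, which understates the change of low genes. A gene is said to be called, to rise or to fall where its adjusted p was under 0.05 (limma over all 9842 genes, Benjamini-Hochberg).

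Between 1.96 and 8.78 M reads fell in the listed genes of a library, and 5983 to 23656 reads in the 77 genes together. TrB_KO replicate 3 stood apart: 61.6% of its reads lay in listed genes, against 16.7% to 20.9% in the other TrB libraries, and 285 genes were listed at 0, against 30 to 52. In the eMZB libraries 27.8% to 41.7% of reads lay in listed genes, above all TrB libraries but that one. The part of this share in the cell type comparisons was not tested. Kdm1a was at 2.65, 2.53 and 2.66 scaled FPKM in eMZB_KO, against 7.53, 8.63 and 4.68 in eMZB_WT, and at 3.35, 2.56 and 2.99 in TrB_KO, against 8.54, 7.93 and 3.47 in TrB_WT. The library labelled TrB_WT replicate 3 therefore lay near the knockout level and that labelled eMZB_WT replicate 3 between its group and the knockout, and Kdm1a was not called in either cell type (adjusted p = 0.148 in eMZB and 0.249 in TrB, limma). Without TrB_WT replicate 3, which also enters the shared estimate of spread, Kdm1a was called lower in both (adjusted p = 0.0113 in eMZB and 0.0127 in TrB). Both libraries of low Kdm1a stay under their labels, and every LSD1 direction below draws on them. The marginal zone markers Cr2, Cd1d1 and Dtx1 summed to 133 to 134 scaled FPKM in eMZB_KO and 123 to 129 in eMZB_WT, against 37.4 to 42.9 in TrB_KO and 33.9 to 37.3 in TrB_WT. All 6 B cell markers were listed, and their sum was lower in eMZB than in TrB and lower in eMZB_KO than in eMZB_WT without overlap, at 1074 to 1117 in eMZB_KO and 1160 to 1289 in eMZB_WT, against 1783 to 2075 in TrB_KO and 2025 to 2350 in TrB_WT. The 5 plasma cell markers, all listed, summed to 34.4 to 41.8 in eMZB_KO, 49.1 to 58.3 in eMZB_WT, 47.7 to 97.6 in TrB_KO and 31.8 to 53.6 in TrB_WT. Of markers of other cells, 1 of 6 T cell (Lck), 3 of 6 macrophage, 1 of 4 erythroid (Hbb-bs) and 0 of 5 neutrophil genes were listed, and Adgre1 and Itgam but not Thy1 of the 3 genes of the sorting antibodies. Their sums were low, and all 4 were higher in eMZB_KO than in eMZB_WT without overlap. The T cell sum was 7.57 to 8.51 in eMZB_KO, 6.13 to 6.75 in eMZB_WT, 6.06 to 7.19 in TrB_KO and 4.36 to 7.59 in TrB_WT. The macrophage sum was 4.25 to 5.45 in eMZB_KO, 2.48 to 3.36 in eMZB_WT, 4.31 to 5.12 in TrB_KO and 5.05 to 6.55 in TrB_WT. The other 2 lists gave the same order of the eMZB groups. The erythroid sum was 1.45 to 1.66 in eMZB_KO, 0.551 to 0.880 in eMZB_WT, 0.920 to 1.93 in TrB_KO and 2.09 to 2.60 in TrB_WT. Adgre1 and Itgam, which the macrophage list also holds, together had 1.77 to 2.12 in eMZB_KO, 0.701 to 1.26 in eMZB_WT, 2.64 to 2.94 in TrB_KO and 3.07 to 3.31 in TrB_WT. The part of these lists in the results was not tested.

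RefSeq promoter windows of 300 bases, 250 before the start and 50 after it (GRCm38.p6), were found for 68 of the 77 genes. Only the first listed window of each gene was used, and its start need not be the outermost start of the gene. Binding of transcription factors was not measured, so matches describe letters alone. On either strand, GCGCANGCG, of the site of NRF1, a factor known for nuclear genes of mitochondrial function, stood in 23.5% of the 68 windows, against 15.5% of 7831 windows of genes in the table and 6.47% of all 27025. CCGGAAG, the core of ETS family sites, stood in 35.3%, against 21.5% and 9.12%. AAGATGGCG, of the YY1 site, stood in 11.8%, against 3.88% and 1.49%. GGGCGG, a core of SP1 sites, stood in 50%, below the 64.1% of genes in the table and above the 35.9% of all windows. The Myc E-box CACGTG stood in 7.35%, against 10.9% and 7.24%, and TATAAA in 5.88%, against 7.58% and 14.2%. Matches of different motifs overlapped in 2 of the 68 windows, those of Mrpl17 and Mrps16, where an ETS and an SP1 match share bases. None of these shares was tested.

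The windows of the 5 genes called between the cell types in both genotypes, and of Mrpl45 and Mrpl57, called in the knockout alone, are given 5′ to 3′ on the strand of the gene. They are shown because these genes carry most of the differences below while their windows share no single motif. Capitals mark the NRF1, ETS and YY1 motifs. The window of Mrpl45 holds 3 NRF1 motifs, that of Mrpl57 an NRF1 and an ETS motif, that of Mrpl12 an NRF1 motif and that of Mrpl42 a YY1 motif. These letters are not in the windows of the other 3. For Mrpl45 the window lies inside the gene, whose outermost start is at base 97314923.
Mrps6, chr16:92058086-92058385, plus strand: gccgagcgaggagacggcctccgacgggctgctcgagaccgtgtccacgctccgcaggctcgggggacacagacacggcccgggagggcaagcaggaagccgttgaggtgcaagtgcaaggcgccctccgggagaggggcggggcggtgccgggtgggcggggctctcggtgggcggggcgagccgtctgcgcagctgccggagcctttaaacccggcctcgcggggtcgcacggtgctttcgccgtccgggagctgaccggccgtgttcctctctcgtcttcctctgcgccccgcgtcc
Mrps15, chr4:126046678-126046977, plus strand: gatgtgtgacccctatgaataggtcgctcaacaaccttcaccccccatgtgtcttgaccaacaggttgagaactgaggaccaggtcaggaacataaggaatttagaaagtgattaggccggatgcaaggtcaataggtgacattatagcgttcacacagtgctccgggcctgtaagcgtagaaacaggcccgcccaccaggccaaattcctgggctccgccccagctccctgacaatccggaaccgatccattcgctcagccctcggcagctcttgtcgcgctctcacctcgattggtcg
Mrpl12, chr11:120484387-120484686, plus strand: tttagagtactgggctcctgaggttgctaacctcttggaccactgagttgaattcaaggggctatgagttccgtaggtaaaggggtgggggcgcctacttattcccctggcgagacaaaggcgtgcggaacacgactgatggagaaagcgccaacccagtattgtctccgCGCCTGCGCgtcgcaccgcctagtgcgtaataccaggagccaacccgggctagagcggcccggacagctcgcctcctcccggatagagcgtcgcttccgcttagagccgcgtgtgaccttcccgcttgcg
Mrpl42, chr10:95501900-95502199, minus strand: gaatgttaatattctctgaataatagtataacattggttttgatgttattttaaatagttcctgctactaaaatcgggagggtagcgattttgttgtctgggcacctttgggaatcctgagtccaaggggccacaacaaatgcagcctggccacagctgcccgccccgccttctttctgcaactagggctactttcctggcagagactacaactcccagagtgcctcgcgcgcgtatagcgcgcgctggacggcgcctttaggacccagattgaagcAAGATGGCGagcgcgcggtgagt
Mrpl45, chr11:97315466-97315765, plus strand: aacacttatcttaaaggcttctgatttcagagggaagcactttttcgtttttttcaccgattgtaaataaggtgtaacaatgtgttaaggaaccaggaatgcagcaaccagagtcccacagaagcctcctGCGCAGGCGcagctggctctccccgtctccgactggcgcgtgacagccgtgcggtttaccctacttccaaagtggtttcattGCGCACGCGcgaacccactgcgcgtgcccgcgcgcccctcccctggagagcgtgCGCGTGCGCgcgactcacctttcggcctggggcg
Mrpl57, chr14:57825989-57826288, plus strand: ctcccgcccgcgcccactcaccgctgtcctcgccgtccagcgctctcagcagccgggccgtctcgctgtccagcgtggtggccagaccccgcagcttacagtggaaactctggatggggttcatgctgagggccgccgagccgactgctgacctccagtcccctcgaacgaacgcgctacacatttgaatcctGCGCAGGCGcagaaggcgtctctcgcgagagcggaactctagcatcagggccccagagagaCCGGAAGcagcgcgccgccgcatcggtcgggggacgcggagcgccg
Mrpl49, chr19:6057706-6058005, minus strand: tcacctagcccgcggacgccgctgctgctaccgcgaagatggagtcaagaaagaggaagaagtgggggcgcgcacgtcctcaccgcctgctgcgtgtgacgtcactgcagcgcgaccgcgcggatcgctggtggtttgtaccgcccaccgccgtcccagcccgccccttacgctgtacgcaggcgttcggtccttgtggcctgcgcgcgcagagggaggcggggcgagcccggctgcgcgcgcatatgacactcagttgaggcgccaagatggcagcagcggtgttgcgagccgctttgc

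Levels of the 77 genes spanned a wide range, and their order was similar in the groups. Across these genes, which share libraries, Spearman's rho between group means lay from 0.935 (eMZB_KO and TrB_WT) to 0.985 (eMZB_KO and eMZB_WT). Over the mean of the 4 groups, the small subunit protein genes Mrps21 and Mrps16, both with bacterial counterparts, stood highest at 27.6 and 24.2 scaled FPKM. Mrpl30, Mrpl42 and Mrpl23, of the large subunit, followed at 21.5, 20.1 and 19.7 scaled FPKM. Mrpl23 lies at the exit of the peptide tunnel, and Mrpl42 has no bacterial counterpart. Mrps21 averaged 28.9 ± 1.94 scaled FPKM in eMZB_KO, 29.5 ± 1.87 in eMZB_WT, 25.7 ± 6.33 in TrB_KO and 26.2 ± 2.0 in TrB_WT (SD, n = 3 each), with the widest spread in TrB_KO. Differences between neighbours in the order were not tested. Mrps25 and Mrps22, small subunit proteins found in mitochondria alone, stood lowest at 0.909 and 1.196 scaled FPKM. Above them came Mrpl19 (1.84), Mrps31 (1.94) and Mrps34 (1.99). Of the exon bases of Mrps25, 58.2% are shared with Nr2c2 on the opposite strand, and 39.2% of those of Mrpl19 with Gcfc2; the libraries do not mark strand, so reads there cannot be told apart. Mrpl23, Mrpl27, Mrpl48 and Mrps36 have pseudogene copies that could share reads, so these 4 values are less certain. The median gene of the 77 stood on 220 reads per library in eMZB_KO, 172 in eMZB_WT, 158 in TrB_KO and 85.3 in TrB_WT. The counting error at that depth is 6.74%, 7.62%, 7.96% and 10.8% in the same order, and the median coefficient of variation between replicates was 7.78%, 7.74%, 16.2% and 14.5%. Over all genes with a mean of at least 10 reads, the variance between replicate pairs was 4.11 to 5.61 times the counting noise in eMZB_KO, 2.56 to 6.89 in eMZB_WT, 3.35 to 18.6 in TrB_KO and 2.94 to 8.79 in TrB_WT. Over that wider set, replicates differed by more than counting error in every group. For the median gene of the 77, the spread was near the counting error in the eMZB groups and above it in the TrB groups.

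**Figure D1:**
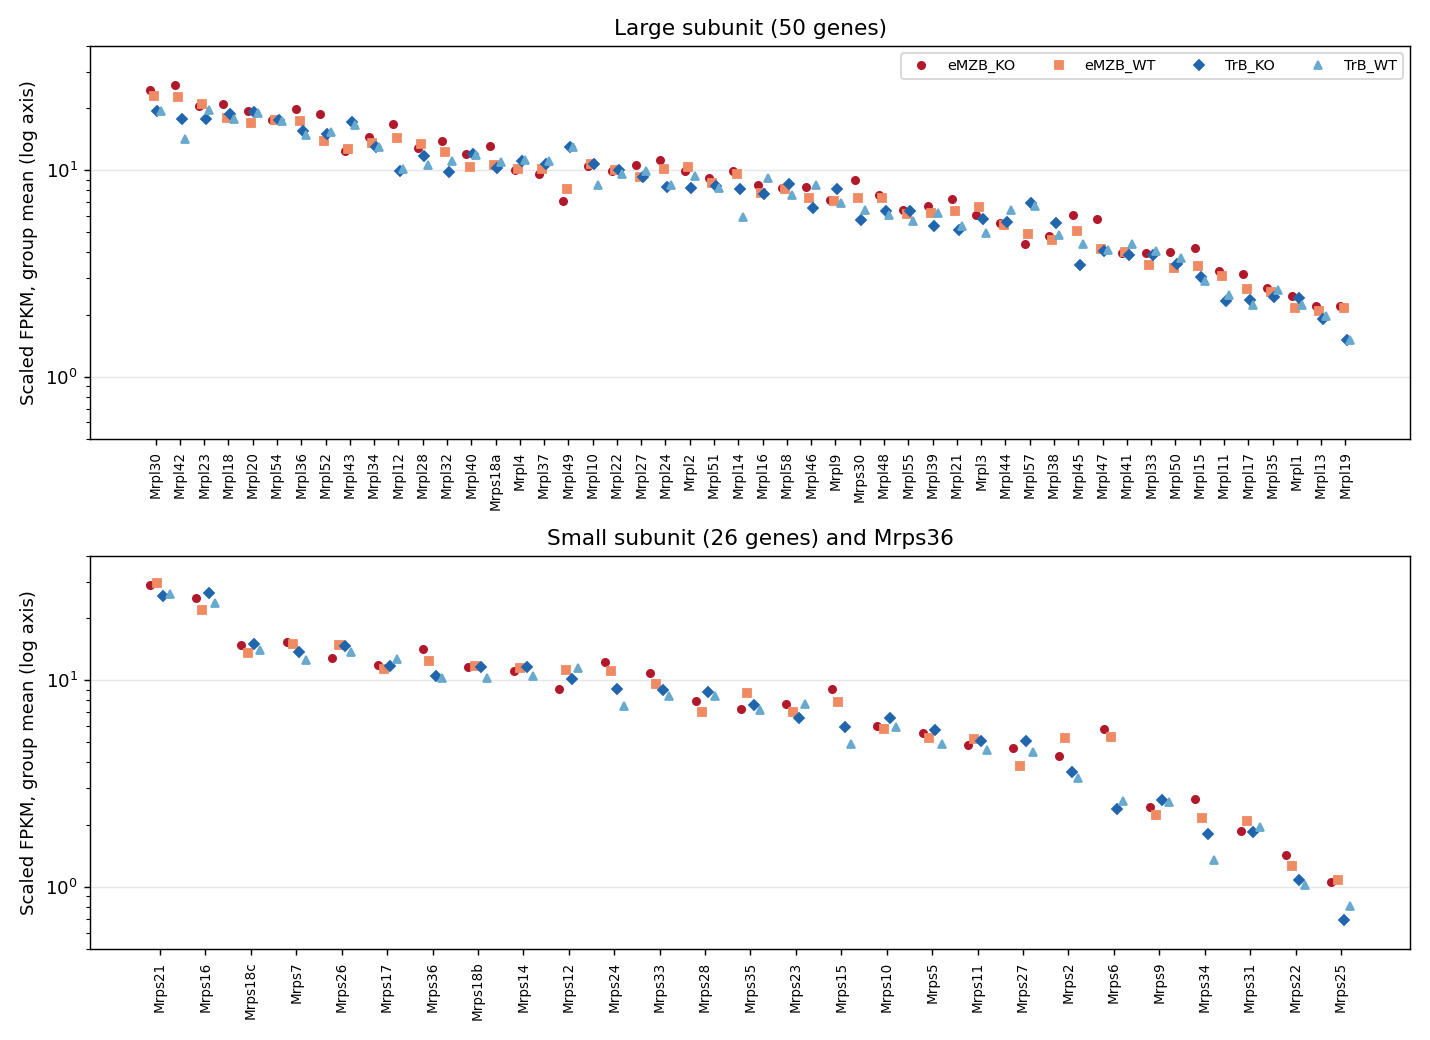
Group means of scaled FPKM (log axis) for the large subunit genes above and the small subunit genes with Mrps36 below, ordered by the mean of the 4 groups, with circles for eMZB_KO, squares for eMZB_WT, diamonds for TrB_KO and triangles for TrB_WT (n = 3 libraries each). The 4 symbols of most genes lie close together; Mrps6, Mrpl42, Mrpl12 and Mrpl49 are among those whose eMZB and TrB symbols separate.

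Between the cell types, a small share of the mitoribosomal genes differed, mostly with higher levels in eMZB. In cells without LSD1 (eMZB_KO against TrB_KO), 6 genes rose and 3 fell, 11.7% of the 77, where 27.4% of all 9842 genes were called. In wild type (eMZB_WT against TrB_WT), 8 rose and 1 fell, also 11.7%, where again 27.4% of all genes were called. The share of these genes called was thus below the background in both genotypes. By direction, the background was 14.2% higher and 13.2% lower in the knockout comparison, and 14.6% higher and 12.7% lower in wild type. The median log2 difference of the 77 was 0.14 in the knockout and 0.08 in wild type, against -0.01 and -0.00 over all genes, and 54 and 49 of the 77 were positive. In the knockout, all eMZB libraries lay above all TrB libraries in 22 of the 77 and below them in 3, where 22.7% and 21.2% of all genes did so. In wild type these were 19 and 6, where 21.8% and 23.3% of all genes did so. At an unadjusted p under 0.05 stood 26 genes in the knockout and 17 in wild type, 33.8% and 22.1% of the 77, where 37.7% and 39.4% of all genes did.

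Mrps6, Mrps15, Mrpl12, Mrpl42 and Mrpl49 were called in both genotypes, 5 of the 9 called in each. The share of all genes called in both was not counted, so this number says little about these genes. Mrps6 (Entrez 121022, chr16:92058336-92112227, mm10) encodes a small subunit protein with a bacterial counterpart and had the largest rise in both. It had 5.69, 4.61 and 7.09 scaled FPKM in eMZB_KO, against 2.82, 2.14 and 2.18 in TrB_KO, and 4.02, 5.77 and 6.17 in eMZB_WT, against 3.21, 2.29 and 2.27 in TrB_WT. Every eMZB library lay above every TrB library, with log2 differences of 0.997 (SE 0.17, adjusted p = 0.00112, limma) in the knockout and 0.81 (SE 0.17, adjusted p = 0.00434) in wild type. Its reads are few, 13 to 125 per library, and 36.1% of its exon bases are shared with Gm49711 and 18.8% with Slc5a3 on the same strand, so reads there cannot be assigned to 1 gene. Mrps15 (chr4:126046928-126055536) encodes a small subunit protein that binds the ribosomal RNA and has a bacterial counterpart. It had 9.38, 8.76 and 8.97 scaled FPKM in eMZB_KO, against 5.52, 5.04 and 7.28 in TrB_KO, and 6.39, 8.34 and 8.72 in eMZB_WT, against 5.02, 5.47 and 4.33 in TrB_WT. The groups did not overlap, and the log2 differences were 0.54 (SE 0.14, adjusted p = 0.0107) and 0.56 (SE 0.14, adjusted p = 0.00913).

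Mrpl12 (chr11:120484637-120488754) encodes the protein of the ribosomal stalk that receives translation factors. It had 17.7, 14.8 and 17.6 scaled FPKM in eMZB_KO, against 11.1, 11.3 and 7.41 in TrB_KO, and 14.9, 13.6 and 14.4 in eMZB_WT, against 9.35, 10.3 and 10.8 in TrB_WT. Its log2 difference was 0.71 (SE 0.14, adjusted p = 0.00210, limma) in the knockout and 0.46 (SE 0.14, adjusted p = 0.0253) in wild type, with no overlap in either. Without TrB_KO replicate 3, its lowest library, the knockout value was 0.53 (adjusted p = 0.00233). The wild-type call held in 8 of the 12 fits that leave out 1 library. It was lost without eMZB_WT replicate 1 or 3 or TrB_WT replicate 1 or 2, with upper-quartile factors, with quantile normalization and by voom on recovered reads. Mrpl42 (chr10:95480805-95501949), a large subunit protein of mitochondria alone, was among the highest of the 77. It had 27.6, 24.7 and 25.03 scaled FPKM in eMZB_KO, against 21.6, 17.3 and 14.2 in TrB_KO, and 24.2, 20.9 and 22.6 in eMZB_WT, against 12.03, 15.8 and 14.5 in TrB_WT. The groups were again apart, by 0.53 on the log2 scale (SE 0.14, adjusted p = 0.0116) and by 0.65 (SE 0.14, adjusted p = 0.00414). Mrpl49 (chr19:6053630-6057755), also of the large subunit and of mitochondria alone, was the 1 gene called lower in both. It had 7.14, 7.67 and 6.54 scaled FPKM in eMZB_KO, against 10.1, 12.7 and 16.2 in TrB_KO, and 9.52, 7.43 and 7.47 in eMZB_WT, against 12.1, 13.0 and 13.6 in TrB_WT. The log2 differences were -0.76 (SE 0.14, adjusted p = 0.00197) and -0.61 (SE 0.14, adjusted p = 0.00764). Syvn1, a ubiquitin ligase gene of the endoplasmic reticulum on the opposite strand, shares 5.16% of the exon bases of Mrpl49 and fell too, with 27.8 ± 1.75 scaled FPKM in eMZB_KO against 52.4 ± 5.17 in TrB_KO and 32.6 ± 1.56 in eMZB_WT against 52.4 ± 0.654 in TrB_WT (SD, n = 3 each). Fau, which starts 59 bases from Mrpl49 on the other strand, did not fall: its log2 difference was 0.52 (adjusted p = 0.0194) in the knockout and 0.23 (adjusted p = 0.260) in wild type. The part of shared reads in the fall of Mrpl49 was not tested.

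The other 4 genes called in the knockout all encode large subunit proteins. Mrpl45, which anchors the ribosome to the inner membrane at the tunnel exit, had 6.22, 6.15 and 5.94 scaled FPKM in eMZB_KO, against 3.85, 3.24 and 3.32 in TrB_KO (log2 difference 0.67, SE 0.09, adjusted p = 0.000183, limma). In wild type it had 4.76, 5.26 and 5.19 in eMZB_WT, against 4.40, 4.66 and 4.16 in TrB_WT, apart as well but not called (0.17, adjusted p = 0.193). Mrpl21, with a bacterial counterpart, rose by 0.43 (adjusted p = 0.0331), with 6.69, 6.76 and 8.35 in eMZB_KO against 5.65, 4.01 and 5.80 in TrB_KO. Its call held in 8 of the 12 fits that leave out 1 library, and was lost without each eMZB_KO library in turn, without TrB_KO replicate 2 (0.29, adjusted p = 0.129) and with the 2 groups fitted alone. Mrpl57 and Mrpl43 fell, and both are of mitochondria alone. Their calls held in 10 and 9 of the 12 fits that leave out 1 library. Both were lost without eMZB_KO replicate 3, without TrB_KO replicate 2 and on the deposited scale. That on Mrpl43 was also lost without eMZB_KO replicate 1. Mrpl57 had 4.69, 4.71 and 3.81 scaled FPKM in eMZB_KO, against 6.25, 8.76 and 5.86 in TrB_KO (-0.55, adjusted p = 0.0152). Mrpl43 had 13.1, 13.6 and 10.6 in eMZB_KO, against 15.1, 19.9 and 16.3 in TrB_KO (-0.43, adjusted p = 0.0298), and shares 27.5% of its exon bases with Twnk, the mitochondrial DNA helicase gene, whose log2 difference was -0.00 (adjusted p = 0.991). Their wild-type log2 values were -0.38 and -0.35, neither past the threshold (adjusted p = 0.0714 and 0.0686).

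The other 4 genes called in wild type were Mrpl14, Mrps24, Mrps2 and Mrps34, all higher in eMZB_WT. Mrpl14, at the contact face of the large subunit, had 10.5, 9.06 and 9.29 scaled FPKM in eMZB_WT, against 6.95, 4.76 and 6.06 in TrB_WT (log2 difference 0.63, SE 0.17, adjusted p = 0.0147, limma). In the knockout the groups overlapped, with 9.91, 9.58 and 10.3 in eMZB_KO against 10.6, 7.79 and 5.88 in TrB_KO (0.29, adjusted p = 0.225). Mrps24, the small subunit counterpart of bacterial protein S3, differed by 0.54 (adjusted p = 0.0333), and TrB_WT replicate 3 was its lowest library at 4.82, against 9.05 and 8.74 in the other TrB_WT libraries. Without that library the difference was 0.29 (adjusted p = 0.0509), and without both libraries of low Kdm1a 0.28 (adjusted p = 0.113). Mrps2 differed by 0.53 (adjusted p = 0.0407), with 4.86, 5.27 and 5.62 in eMZB_WT against 3.24, 2.60 and 4.27 in TrB_WT. Mrps34, a small subunit protein of mitochondria alone, differed by 0.43 (adjusted p = 0.0379) on few reads, 10 to 96 per library. Calls on Mrps24, Mrps2 and Mrps34 held in 8, 3 and 6 of the 12 fits that leave out 1 library, and that on Mrpl14 in 10.

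**Figure D2:**
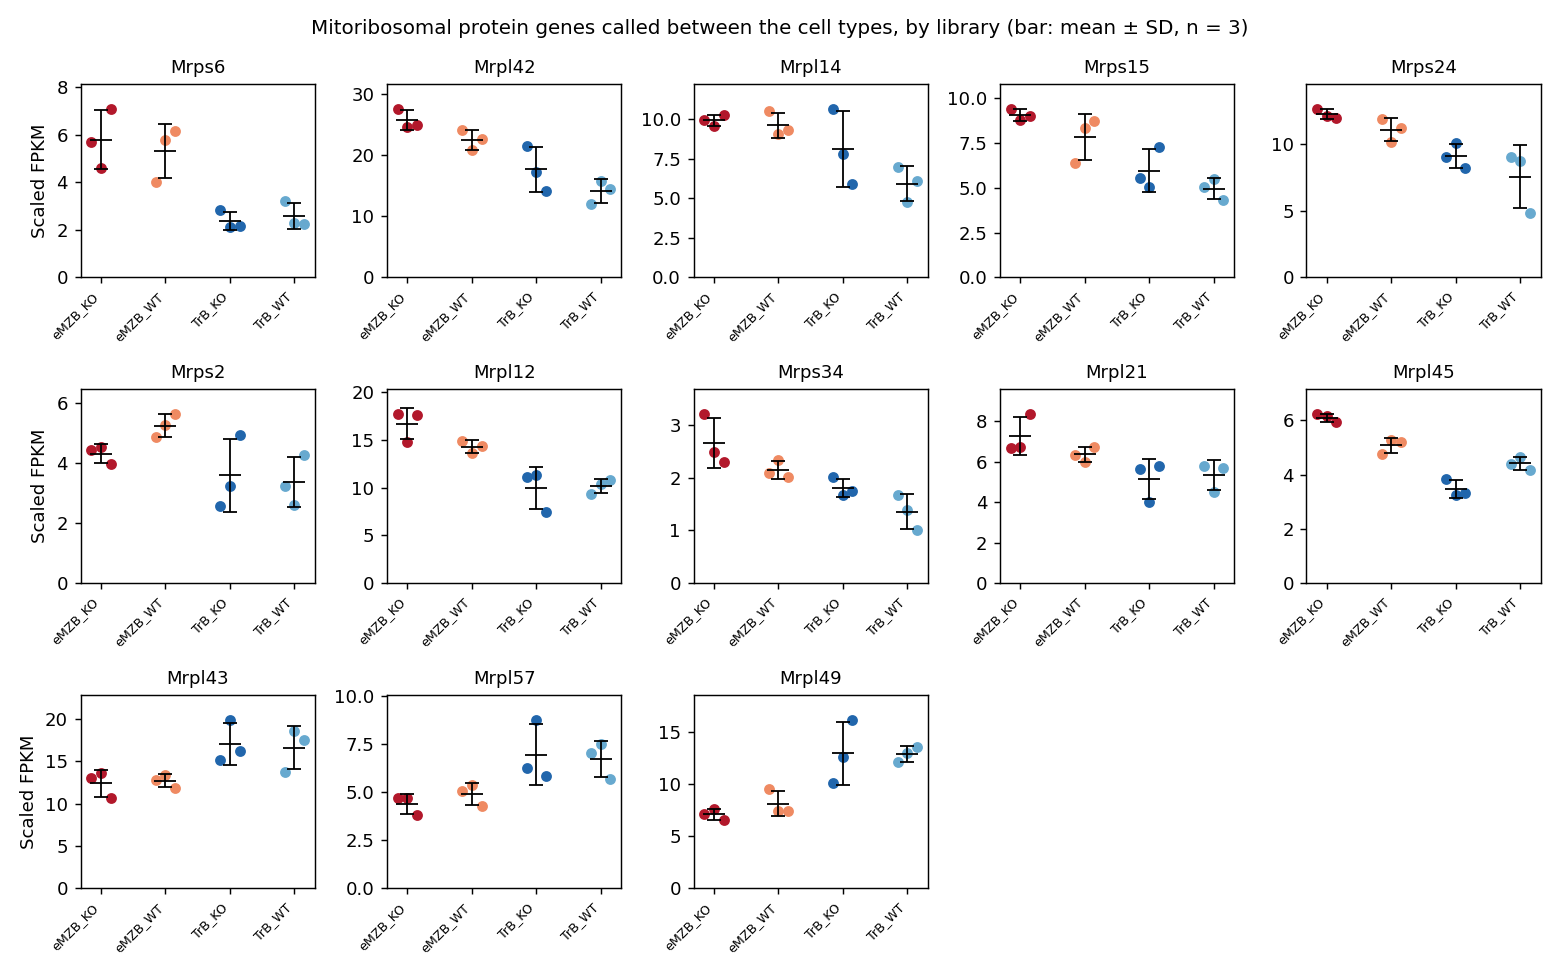
Scaled FPKM in each library for the 13 mitoribosomal protein genes called in at least 1 cell type comparison, in columns for eMZB_KO, eMZB_WT, TrB_KO and TrB_WT, with the mean ± SD as bars (n = 3) and axes from 0. In Mrps6 all 6 eMZB libraries lie above all 6 TrB libraries, and in Mrpl49 below them.

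Set side by side, 13 genes were called in at least 1 genotype and 64 in neither, and 54 of the 77 had the same sign in both. The matching shares of all genes were not counted. Across the 77 genes the 2 sets of log2 differences, which share no library, had a Pearson r of 0.716, and across all 9842 genes 0.810, as descriptions. The interaction, which tests whether the cell type difference itself differs between genotypes, called none of the 77 (limma, 5 at an unadjusted p under 0.05, 0 by voom on recovered reads; background 0.0102%). So no gene called in 1 genotype is shown to differ from the other genotype. The counts moved with the libraries. Without both libraries of low Kdm1a the wild-type count was 3, and Mrpl42 was the 1 of its 9 genes still called, while Mrps6, Mrpl12, Mrps15 and Mrpl49 stood at adjusted p = 0.0531, 0.0711, 0.0961 and 0.0666. With TrB_KO replicate 3 left out as well, a choice made after seeing the data, 11 were called higher and 1 lower in wild type. Mrps6, Mrpl12, Mrps15 and Mrpl49 were called again in that fit. TrB_KO replicate 3 enters the wild-type comparison only through the shared estimate of spread. The wild-type count was 4 without eMZB_WT replicate 1, 5 without eMZB_WT replicate 3 and 5 by voom on recovered reads. The knockout count was 11 without TrB_KO replicate 3, 18 without TrB_KO replicate 1, 17 without TrB_WT replicate 3, which enters through the shared estimate of spread, and 23 by voom. With the replicate number as a block, which treats same-numbered libraries as paired, it was 10 over all libraries and 14 in the 2 groups alone. On the deposited scale, where the median of all genes shifted by 0.23 in the knockout and 0.67 in wild type, Mrps6 alone was called in the knockout and 9 genes, all higher, in wild type, and Mrpl49 stood at 0.18 there.

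**Figure D3:**
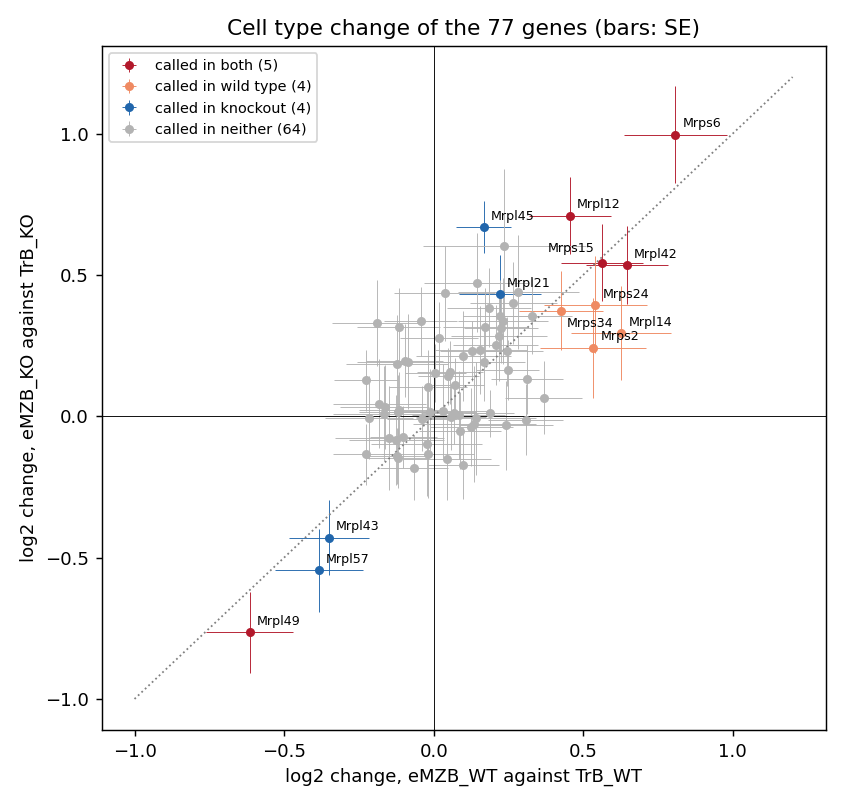
Log2 difference of eMZB_KO against TrB_KO (vertical axis) and of eMZB_WT against TrB_WT (horizontal axis) for the 77 genes, with standard errors as bars and the line of equal change dotted. The 13 called genes are named, with Mrps6 at the upper right and Mrpl49 at the lower left, and most of the other 64 lie near 0.

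In transitional B cells, loss of LSD1 (TrB_KO against TrB_WT) called none of the 77 genes (limma, 4 at an unadjusted p under 0.05, 0 by voom), where 0.498% of all genes were called (0.386% higher and 0.112% lower). At that rate under 1 call would fall among 77 genes, so the count says little about these genes. Their log2 differences ran from -0.36 to 0.37 with a median of 0.02, against 0.01 over all genes. In 2 genes all TrB_KO libraries lay above all TrB_WT libraries, Mrps18b and Mrps34, and in 2 below, Mrpl45 and Mrpl46, where 6.14% and 4.37% of all genes did so. Mrpl45 had 3.85, 3.24 and 3.32 scaled FPKM in TrB_KO, against 4.40, 4.66 and 4.16 in TrB_WT (log2 difference -0.28, SE 0.09, adjusted p = 0.306). Mrpl46, of the central protuberance of the large subunit, had 7.56, 7.58 and 4.45 in TrB_KO, against 8.15, 7.77 and 9.57 in TrB_WT (-0.36, SE 0.15, adjusted p = 0.440), and -0.14 without TrB_KO replicate 3. The next lowest by p was Mrpl16, close to the site of incoming transfer RNA, with 7.71 ± 0.877 in TrB_KO against 9.21 ± 0.808 in TrB_WT (-0.23, adjusted p = 0.506). On the higher side stood Mrpl10, the base of the stalk, with 11.8, 12.2 and 8.25 in TrB_KO against 8.82, 7.58 and 9.07 in TrB_WT (0.29, SE 0.13, adjusted p = 0.448). Only when TrB_KO replicate 3 and both libraries of low Kdm1a were left out was it called, at 0.50 (adjusted p = 0.0369); without TrB_KO replicate 3 alone it stood at 0.46 (adjusted p = 0.0824). Mrpl14 (0.37, adjusted p = 0.483) and Mrpl42 (0.30, adjusted p = 0.508) came next, and their groups overlapped.

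In ex vivo-derived marginal zone B cells, loss of LSD1 (eMZB_KO against eMZB_WT) also called none of the 77 (limma, 4 at an unadjusted p under 0.05, 0 by voom), where 0.406% of all genes were called (0.335% higher and 0.0711% lower). The log2 differences ran from -0.27 to 0.41, with a median of 0.08 against -0.00 over all genes, and 54 of 77 were positive. In 13 genes all eMZB_KO libraries lay above all eMZB_WT libraries and in 3 below, 16.9% and 3.90% of the 77, where 9.13% and 9.29% of all genes did so. Mrpl52, a large subunit protein of mitochondria alone, had 21.1, 16.9 and 18.2 scaled FPKM in eMZB_KO, against 13.8, 13.2 and 14.7 in eMZB_WT (log2 difference 0.40, SE 0.14, adjusted p = 0.628). Mrpl47, near the tunnel exit, had 5.50, 6.27 and 5.70 in eMZB_KO, against 4.38, 3.86 and 4.18 in eMZB_WT (0.41, SE 0.17, adjusted p = 0.843). Mrpl45 had 6.22, 6.15 and 5.94 in eMZB_KO, against 4.76, 5.26 and 5.19 in eMZB_WT (0.23, SE 0.09, adjusted p = 0.807). In these 3 genes the groups did not overlap, though none passed the threshold. The lower genes with the smallest p were Mrps12, of the decoding centre (9.08 ± 0.642 in eMZB_KO against 11.2 ± 1.64 in eMZB_WT), Mrps26 (12.8 ± 0.681 against 14.8 ± 2.19) and Mrps35 (7.22 ± 0.775 against 8.69 ± 0.593; SD, n = 3 each). Their log2 differences were -0.27, -0.18 and -0.24, and the groups of all 3 overlapped (adjusted p = 0.9999 each).

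The response to LSD1 loss was compared between the cell types by the same interaction. Mrpl45 and Mrpl46 stood at 0.50 (SE 0.13, adjusted p = 0.478, limma) and 0.52 (SE 0.21, adjusted p = 0.686). In both, every eMZB_KO library lay above every eMZB_WT library and every TrB_KO library below every TrB_WT library. How many of all genes did so was not counted. Mrpl46 had 8.19, 8.48 and 8.14 scaled FPKM in eMZB_KO, against 7.42, 7.07 and 7.43 in eMZB_WT, and its interaction was 0.30 without TrB_KO replicate 3. Mrps11, which starts 412 bases from Mrpl46 on the opposite strand and is the 1 such neighbour that is itself a mitoribosomal gene, had an interaction of -0.15 (adjusted p = 0.952). Mrpl16 followed at 0.35 (adjusted p = 0.686). Mrpl10, Mrpl3 and Mrps26 lay on the negative side at -0.32, -0.30 and -0.27 (adjusted p = 0.797, 0.818 and 0.818). On the deposited scale, with a median of all genes at -0.46, Mrpl45 stood at 0.05 and Mrpl46 at 0.04. The 3 paralogs that share the name Mrps18 stayed uncalled in all comparisons: the log2 difference of eMZB_KO against eMZB_WT was 0.28 for Mrps18a, of the large subunit, -0.02 for Mrps18b and 0.12 for Mrps18c (adjusted p = 0.879, 0.9999 and 0.9999).

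By subunit, the 9 genes called in the knockout cell type comparison were 4 higher and 3 lower of the 50 of the large subunit and 2 higher of the 26 of the small subunit, 14% and 7.69% called. In wild type they were 3 higher and 1 lower of the 50, and 5 higher of the 26, 8% and 19.2% called. All of these shares lay below the 27.4% of all genes called in each comparison, while the 5 small subunit genes in wild type, all higher, stood above the 14.6% of all genes called higher. Genes with a bacterial counterpart gave 4 higher of 46 in the knockout and 6 higher of 46 in wild type, and none lower, 8.70% and 13.0%, where 14.2% and 14.6% of all genes were called higher. Genes found in mitochondria alone, Mrps36 included, gave 2 higher and 3 lower of 31 in the knockout and 2 higher and 1 lower of 31 in wild type, 16.1% and 9.68% called in either direction, again below 27.4%. All the falls thus came from genes without a bacterial counterpart, Mrpl49, Mrpl57 and Mrpl43. The difference between these classes was not tested. Mrps36 itself, not a ribosomal protein, had 14.2 ± 1.61 scaled FPKM in eMZB_KO, 12.4 ± 0.549 in eMZB_WT, 10.5 ± 3.22 in TrB_KO and 10.3 ± 3.05 in TrB_WT (SD, n = 3 each) and was not called. Summed over the large subunit, the genes had 494 ± 17.98 scaled FPKM in eMZB_KO, 458 ± 23.2 in eMZB_WT, 440 ± 37.9 in TrB_KO and 438 ± 19.1 in TrB_WT. The small subunit summed to 236 ± 8.46 in eMZB_KO, 232 ± 0.929 in eMZB_WT, 224 ± 11.8 in TrB_KO and 213 ± 13.0 in TrB_WT. The ratio of small to large ran from 0.475 to 0.480 in eMZB_KO, 0.484 to 0.537 in eMZB_WT, 0.470 to 0.537 in TrB_KO and 0.457 to 0.515 in TrB_WT, so the groups overlapped except that eMZB_KO lay below eMZB_WT. In TrB_KO replicate 3, which stood apart, the small subunit was near the other TrB libraries (214) and the large subunit was the lowest of all 12 (398).

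**Figure D4:**
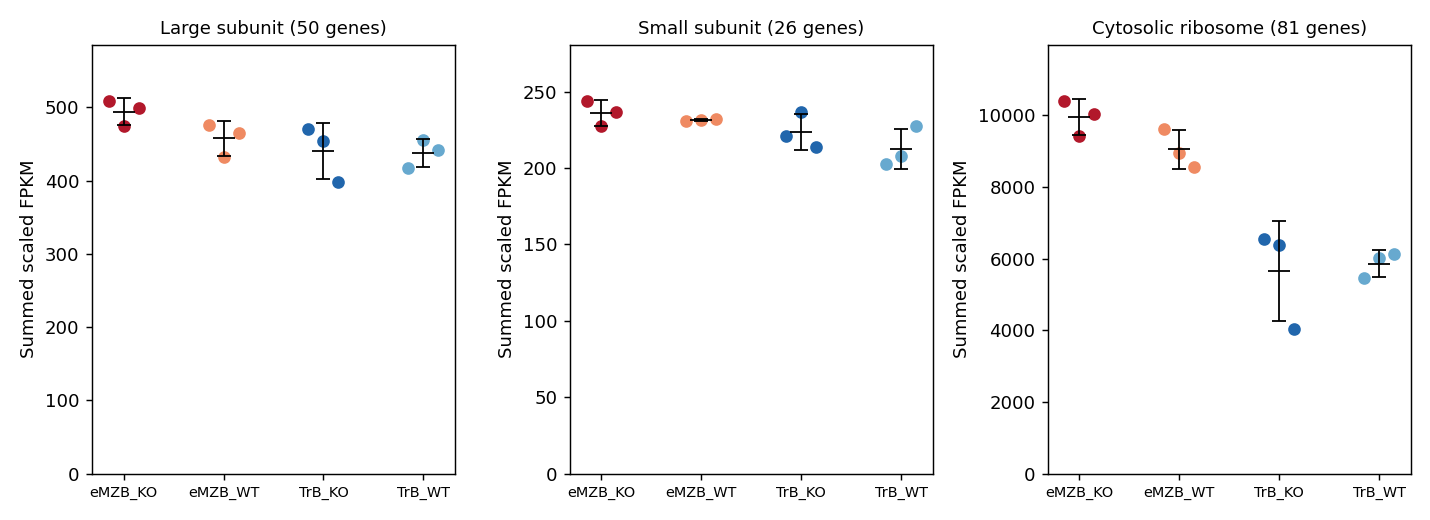
Summed scaled FPKM per library of the 50 large subunit genes, the 26 small subunit genes and 81 cytosolic ribosomal protein genes, in columns for eMZB_KO, eMZB_WT, TrB_KO and TrB_WT, with mean ± SD as bars (n = 3) and axes from 0. The mitoribosomal sums differ little between groups, while the cytosolic sums of eMZB all lie above those of TrB.

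The cytosolic ribosome, which translates all other messenger RNAs, served as the nearest comparison, by 81 genes named Rpl or Rps. In the knockout cell type comparison 79 of them rose and 1, Rps4l, fell, and in wild type 67 rose and none fell, with median log2 differences of 0.83 and 0.58. Their sum was 10410, 9419 and 10031 scaled FPKM in eMZB_KO, against 6555, 6374 and 4049 in TrB_KO, and 9630, 8945 and 8564 in eMZB_WT, against 5447, 6017 and 6129 in TrB_WT. The mitoribosomal sum was 768, 717 and 748 in eMZB_KO, against 705, 701 and 619 in TrB_KO, and 719, 676 and 709 in eMZB_WT, against 628, 672 and 683 in TrB_WT. The ratio of the cytosolic to the mitochondrial sum was therefore 13.6, 13.1 and 13.4 in eMZB_KO, against 9.30, 9.10 and 6.54 in TrB_KO, and 13.4, 13.2 and 12.1 in eMZB_WT, against 8.67, 8.95 and 8.97 in TrB_WT. These ratios do not depend on the scaling of a library, and every eMZB library lay above every TrB library. The difference between the lists was not tested. With LSD1 loss 0 of the 81 were called in either cell type, with medians of 0.14 in eMZB and -0.08 in TrB. The median in TrB changed sign to 0.13 without TrB_KO replicate 3 and to 0.53 on the deposited scale, and that of the mitoribosomal genes was 0.07 and 0.58 in the same fits, and -0.02 with upper-quartile factors.

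**Figure D5:**
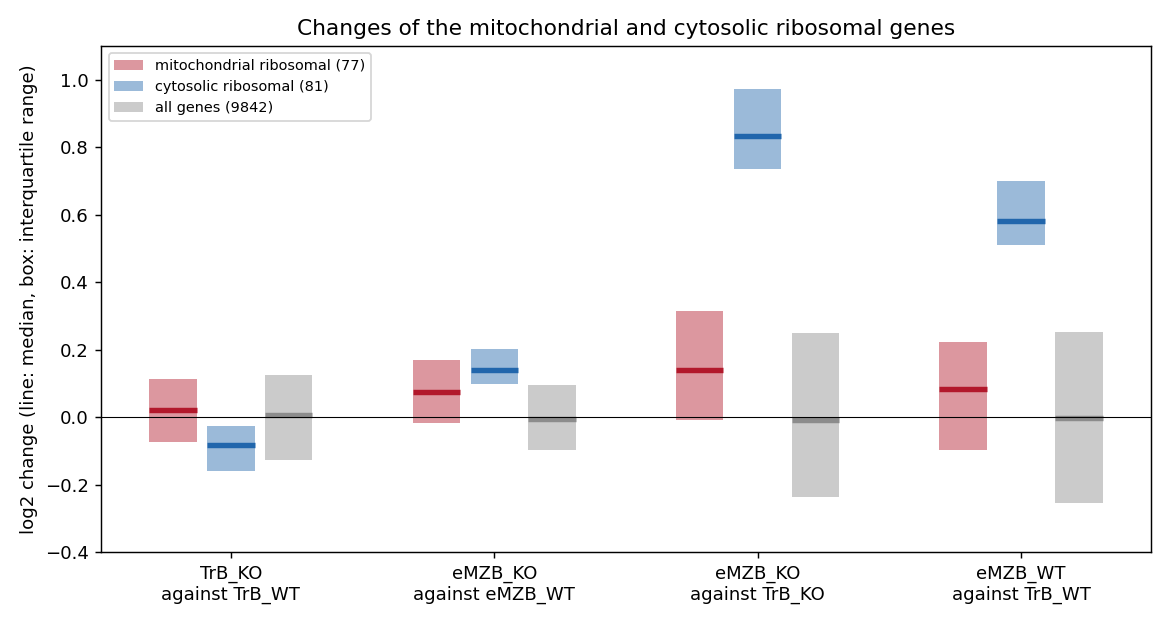
Median (line) and interquartile range (box) of the log2 differences of the 77 mitoribosomal genes, the 81 cytosolic ribosomal genes and all 9842 genes in 4 comparisons. In both comparisons of eMZB with TrB the cytosolic boxes lie above 0.5 and the mitoribosomal boxes near 0.

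Other genes that the mitoribosome needs were counted in both cell type comparisons, in lists by role, where 14.2% of all genes were called higher and 13.2% lower in the knockout, and 14.6% and 12.7% in wild type. Of 5 ribosomal proteins under other names, 3 rose in the knockout and none was called in wild type. They were Chchd1 (0.52, adjusted p = 0.00230, limma), Gadd45gip1 (0.51, adjusted p = 0.0189) and Dap3 (0.38, adjusted p = 0.0308). Ptcd3 and Aurkaip1 stood at 0.08 each in wild type, and their sign turned without single libraries. Of 25 listed genes of assembly and ribosomal RNA modification, 3 rose and 1 fell in the knockout (16% called), and 2 rose and none fell in wild type (8%). The risers in wild type were C1qbp, a matrix protein that binds ribosomes, with 25.1, 23.6 and 22.1 scaled FPKM in eMZB_WT against 14.2, 13.5 and 7.14 in TrB_WT (1.02, adjusted p = 0.00136), and the RNA methyltransferase Mrm2 (0.49, adjusted p = 0.0338). C1qbp rose in the knockout too (0.85, adjusted p = 0.00422), while Mrm2 stood at 0.31 there (adjusted p = 0.168).

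Of 15 translation factors and messenger RNA binding proteins, 1 rose and none fell in the knockout (6.67% called), and 2 rose and 1 fell in wild type (20%). The elongation factor Tufm stood at 0.26 in the knockout (adjusted p = 0.0413) and 0.27 in wild type (adjusted p = 0.0382), called in both. Slirp, an RNA stabilizer, rose in wild type (0.67, adjusted p = 0.00498) and was not called in the knockout (0.34, adjusted p = 0.103). The formyltransferase Mtfmt fell in wild type (-0.40, adjusted p = 0.0230) and stood at -0.03 in the knockout (adjusted p = 0.880). Of 11 genes that transcribe and copy mitochondrial DNA, none rose and 1 fell in the knockout, and 1 rose and 1 fell in wild type. Mterf2 fell in both (-0.72, adjusted p = 0.00362 in the knockout; -0.77, adjusted p = 0.00239 in wild type). Tfam, the packaging protein of that DNA, rose in wild type (0.42, adjusted p = 0.00404) and was not called in the knockout (0.12, adjusted p = 0.376).

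Of 17 aminoacyl-tRNA synthetases, 2 fell in the knockout and 1 in wild type, and none rose. Fars2 fell in both (-0.52, adjusted p = 0.00743 in the knockout; -0.51, adjusted p = 0.00835 in wild type). Of 25 import genes, 5 rose in the knockout (20%) and 4 in wild type (16%), and none fell. Hspa9, the matrix chaperone of the import motor, had 32.9, 33.7 and 35.8 scaled FPKM in eMZB_WT against 17.9, 13.3 and 16.0 in TrB_WT (1.08, adjusted p = 1.51e-05). Timm23, Timm8a1 and Tomm70a differed by 0.63, 0.66 and 0.35 in wild type (adjusted p = 0.000577, 0.0366 and 0.0415). Most of these lists are small, and none was tested against other genes. The wild-type calls on Tufm, Tomm70a, Timm8a1, Mrm2 and Mtfmt held in 6, 5, 7, 8 and 9 of the 12 fits that leave out 1 library, and voom on recovered reads called none of these 5. Without both libraries of low Kdm1a, Tufm, Tomm70a, Timm8a1 and Mtfmt were not called (adjusted p = 0.161, 0.0721, 0.0601 and 0.0807), and neither was Fars2. With TrB_KO replicate 3 left out as well, Tomm70a, Timm8a1, Mtfmt and Fars2 were called again and Tufm was not. Hspa9, Timm23, C1qbp, Slirp and Tfam were called in all 24 alternative fits. The falls of Mtfmt and Fars2 in wild type have the opposite sign on the deposited scale, at 0.29 and 0.21. None of the genes in these lists was called with LSD1 loss, where 0.406% of all genes were called in eMZB and 0.498% in TrB (limma).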

How the data were processed

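RNA of 2000 sorted cells per library was made into libraries with SMART-Seq v4 and Nextera XT, per the labels' protocols, a kit pair that does not mark strand. The authors deposited 1 table of FPKM values for 9842 genes in 12 libraries, with every gene at 1 FPKM or more in at least 3 libraries, and no column was left unused (0). STAR and mm10 are named in the submitters' processing notes, while counter, annotation and gene lengths were not given in the sources used here. Entrez IDs were matched to symbols for 9833 genes and 9 found none. Whole reads were recovered from the FPKM steps for 9842 genes within 0.02 of a whole number; they served for depth and for 1 alternative test. The libraries carry no molecular identifiers, so copies made by PCR count as reads and the counting error given covers counting alone.

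FPKM were divided by median-of-ratios factors (0.613 to 2.14, over 9446 genes) because the deposited scale differs between libraries. log2(scaled FPKM + 1) was fitted with limma 3.58.1 (R 4.3.3; 4 group means, trended eBayes, two-sided) over all genes and libraries, with Benjamini-Hochberg adjustment and a threshold of 0.05. Summaries and figures used Python 3.11.15, pandas 2.3.3, numpy 2.4.6 and matplotlib 3.10.9. The code was tested on simulated data. Exon overlaps came from GENCODE on mm10 and promoters from RefSeq on GRCm38.p6.

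The members, lists, tests and motifs were chosen with earlier results of these data known; the NRF1 and YY1 motif letters were shortened and another motif dropped after their shares had been seen. Named genes were all called ones in the cell type comparisons, the 3 higher and 3 lower with the smallest p where fewer than 6 were called, the 5 highest and 5 lowest in level, the Mrps18 paralogs and up to 4 of each other list; Syvn1, Fau, Twnk and Mrps11 were named for their position, after their values were seen. Replicate numbers come from the labels. Same-numbered libraries of eMZB_KO and TrB_KO deviated together over genes (r = 0.161, 0.106 and 0.292). These r were also positive for eMZB_KO and eMZB_WT (0.021, 0.183 and 0.219) and for eMZB_WT and TrB_WT (0.070, 0.015 and 0.273). In the remaining pairs of groups the signs were mixed. Libraries of unlike number in eMZB_KO and TrB_KO reached 0.120. Whether equal numbers mark a pairing was therefore not settled for any groups, and the main fit uses none. Alternatives were other factors, the deposited scale, quantile normalization, a pseudocount of 0.1, a mean of at least 5 FPKM, voom on recovered reads, the replicate block, the groups compared alone, and libraries left out.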

Additional observations from a re-analysis of the deposited data

Results flagged for a closer look

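For Mrpl45 and Mrpl46 the libraries lay apart in opposite directions in the 2 cell types, though neither gene was called with LSD1 loss in either. Every eMZB_KO library lay above every eMZB_WT library, and every TrB_KO library below every TrB_WT library. The share of all genes with this pattern was not counted. On the deposited scale the TrB differences of both genes were positive. The difference between the responses, eMZB minus TrB, was 0.502 on the log2 scale for Mrpl45 (adjusted p = 0.478, limma) and 0.519 for Mrpl46 (adjusted p = 0.686, limma), so neither passed the threshold. For Mrpl46 the difference was 0.30 without TrB_KO replicate 3.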

How the results depend on the processing

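No mitoribosomal gene was called for LSD1 loss or the interaction in any alternative but 1: with TrB_KO replicate 3 and both wild-type libraries of low Kdm1a left out (chosen after seeing the data), 1 was called in TrB. For eMZB_WT against TrB_WT, 9 were called, 3 without both libraries of low Kdm1a, 5 by voom, and 4 to 12 with 1 library left out. Without both libraries of low Kdm1a and TrB_KO replicate 3, 11 were called higher and 1 lower there. For eMZB_KO against TrB_KO, 9 were called, 1 on the deposited scale, 15 without both libraries of low Kdm1a, 14 without these and TrB_KO replicate 3, 23 by voom, and 6 to 18 with 1 library left out. With the replicate block, 10 were called in the knockout, and 14 with the 2 groups alone and the block (added after seeing the data). In wild type the block gave 11, or 8 with the 2 groups alone. Whether equal numbers mark a pairing was not settled in either genotype. The replicate block called 0 for LSD1 loss in both cell types and for the interaction. A pseudocount of 0.1 left each of these counts within 1.5 times of its value. The cause of these changes was not tested.

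On the deposited scale the median of all genes shifted by 0.52 in TrB with LSD1 loss, 0.67 in the wild-type cell type comparison and -0.46 in the interaction. The sign turned there for Mrpl49 (0.18), Mrps18a (0.74), Mrps18c (0.77), Mtfmt (0.29), Trub2 (0.35), Fars2 (0.21) and Lars2 (0.22) in eMZB_WT against TrB_WT, for Mrpl45 (0.24), Mrpl46 (0.19) and Mrpl16 (0.35) in TrB_KO against TrB_WT, and for Mrpl16 in the interaction (-0.16). With 1 library left out, eMZB_WT against TrB_WT ran from -0.0188 to 0.167 for Ptcd3, -0.0749 to 0.174 for Aurkaip1, -0.0917 to 0.0239 for Mrps18a and -0.118 to 0.0702 for Mrps18c. Mrps18c stood at 0.10 without both libraries of low Kdm1a, with or without TrB_KO replicate 3. Depth limits Mrps6 and Mrps34 most among the called genes.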
